A study of Mus musculus with 4 samples.

Results

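The 10 genes described here encode proteins that make, bind or regulate the poly(A) tail of messenger RNA: the cytoplasmic poly(A)-binding proteins Pabpc1, Pabpc2, Pabpc4 and Pabpc1l, the nuclear poly(A)-binding protein Pabpn1, the PABP-interacting proteins Paip1, Paip2 and Paip2b, and the poly(A) polymerases Papola and Papolb. They were chosen by gene symbol, and all 10 were found among the 25265 genes of the deposited count table and passed the filter on low counts, which left 21132 genes tested. Testis RNA from C57BL/6 mice at postnatal day 56 was sequenced after removal of ribosomal RNA, with 2 libraries of control mice and 2 that carry the label Ythdf2-vKO. The series title describes the mutation of Ythdf2 as germ cell-specific. The promoter used to restrict it, the deleted segment, the alleles carried by the controls and the animal behind each library are not given in the sources used here, so p-values measure only the spread between these libraries, which may be technical.

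A poly(A) polymerase adds adenosines to the 3′ end of a cleaved pre-mRNA. In the nucleus the growing tail is bound by PABPN1, and in the cytoplasm by PABPC proteins, which contact the initiation factor eIF4G at the cap and favour translation. YTHDF2 binds N6-methyladenosine in mRNA and recruits a deadenylase that shortens this tail. Male germ cells store many mRNAs for days before translating them, and they carry germ cell forms of both kinds of protein: Pabpc2 and Papolb, whose single exons in the GENCODE annotation set them apart from the 15 exons of Pabpc1 and the 22 of Papola.

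Because related genes can share reads, their coding sequences were compared first. Papola lies on the plus strand of chromosome 12 (105784694 to 105838944, GRCm38) and Papolb on the minus strand of chromosome 5 (142525838 to 142530076). Their coding sequences were identical at 1640 of 1920 aligned bases (85.4%), and the longest run without a difference was 65 bases. The most alike stretch of 90 bases within one exon of each, at chr12:105809526-105809615 (plus strand) and chr5:142529095-142529184 (minus strand), is shown to let the reader see how the pair can be told apart. Capitals mark the 4 bases that differ.

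Papola: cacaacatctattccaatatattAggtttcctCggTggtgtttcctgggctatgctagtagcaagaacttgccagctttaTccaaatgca

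Papolb: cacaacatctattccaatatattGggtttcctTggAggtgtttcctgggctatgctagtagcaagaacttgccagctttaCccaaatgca

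Pabpc1 (chromosome 15, 36595661 to 36609668, minus strand) was likewise 83.3% identical to Pabpc2 over 1879 aligned coding bases, with a longest identical run of 37 bases, and 83.5% identical to Pabpc6 (chromosome 17, 9666495 to 9669717, minus strand), a further PABPC gene with a single exon, where the longest run was 42.

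Pabpc4 (chromosome 4, 123262351 to 123298925, plus strand) had the most pseudogene copies of the members. BLAST found 17 pseudogenes that matched its coding sequence at 80% identity or more over at least 100 bases. By the same thresholds Pabpc1 had 4, among them Gm16580 (97.1% over 1049 positions) and Gm8276 (92.4% over 1860). Counts of these 2 summed to 107 and 106 (control) against 106 and 92 (labelled vKO). The transcribed pseudogene Gm10110 on chromosome 14 was identical to Pabpc4 at 1910 of 1920 aligned bases, with a longest identical run of 530. These counts leave out gaps, and BLAST, which counts them, gave 96.5% identity over 1980 positions. The stretch below, in Pabpc4 at chr4:123283621-123283710 (plus strand), had no base that differed from Gm10110 at chr14:89898371-89898460 (minus strand), and so carries no capitals.

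Pabpc4 and Gm10110: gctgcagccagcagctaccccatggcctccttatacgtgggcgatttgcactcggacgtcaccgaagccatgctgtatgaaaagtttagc

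Members also differed when each transcript was cut into all its overlapping stretches and these were sought in the transcripts of every other annotated gene. All 50-base stretches of Pabpc2, Pabpc1l, Paip1, Paip2 and Paip2b were found nowhere else, as were 99.6% of those of Papolb and 99.0% of those of Papola. For Pabpc1 the share was 79.3% at 50 bases and 98.4% at 150, for Pabpn1 72.7% and 85.4%, and for Pabpc4 24.8% and 65.2%. The read length and the treatment of reads with several matches are not given in the sources used here. Counts of Pabpc4 are therefore uncertain, as are, to a lesser degree, those of Pabpn1 and, if reads were short, Pabpc1.

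**Figure D1:**
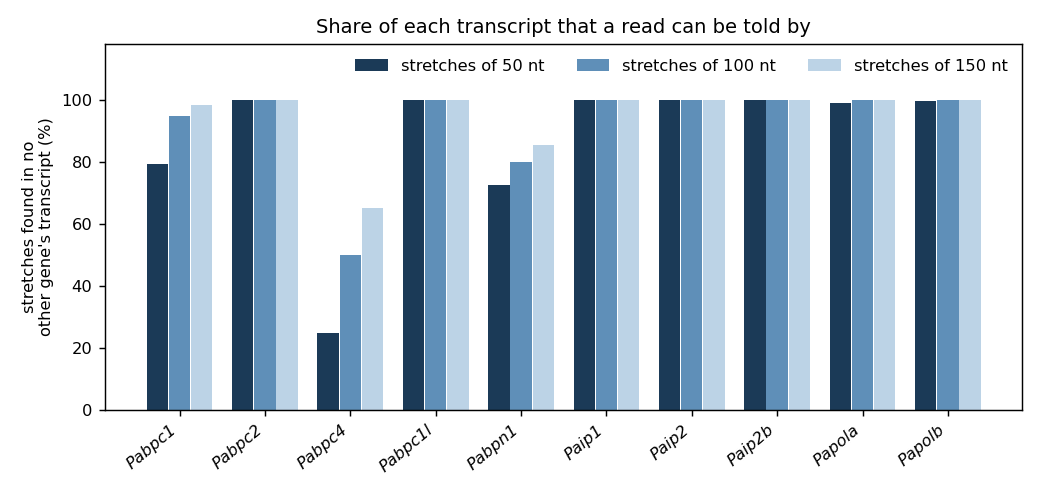
Bars give, for each of the 10 genes (x axis), the percentage of all stretches of 50, 100 or 150 bases of its coding transcript that occur in no annotated transcript of another gene on either strand (y axis, from 0). Pabpc4 has the lowest bars at 24.8%, 49.9% and 65.2%, followed by Pabpn1.

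Library totals were 24862518 and 29561182 counts (control) against 26298245 and 26265700 (labelled vKO). The targeted gene Ythdf2 had 1193 and 1604 counts (control) against 1774 and 1807 (labelled vKO), or 51.0 and 53.5 against 66.3 and 67.0 CPM. Both libraries labelled vKO were thus higher (log2 fold change 0.35, unadjusted p 0.016, adjusted p 0.238 by edgeR's quasi-likelihood test). A gene total cannot show whether a part of the gene is missing, so it does not check the labels, and every direction below holds only if they are right. No marker gene in the 10 lists of testis cell types was absent or at 0 in all libraries. Control replicate 2 stood apart by base composition: across genes, its deviation from the mean of all libraries had a Spearman correlation of -0.416 with GC content, against 0.0189 in control replicate 1 and 0.269 and 0.203 under the vKO label.

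The levels of the 10 genes spanned a wide range. Levels are CPM (counts scaled to a common library size, here by TMM) per kilobase of merged exons, given as the lowest, median and highest of the 4 libraries. Pabpc1, the main cytoplasmic poly(A)-binding protein of somatic cells, came first at 272.2, 324.3 and 364.7. Pabpc2 followed at 247.1, 274.2 and 314.6, overlapping Pabpc1. Papolb, the testis poly(A) polymerase that acts in the cytoplasm of germ cells, was the third at 148.2, 175.6 and 196.3 and overlapped no other member. Its canonical nuclear counterpart Papola reached 24.6, 25.3 and 26.4, also apart from its neighbours in this order.

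Among the PABP-interacting proteins, Paip2, an inhibitor that displaces PABP from the tail, stood at 47.2, 54.4 and 59.1 CPM per kilobase. Paip1, a stimulator of translation that links PABP to the initiation machinery, was at 15.1, 17.0 and 18.4, and Paip2b, a paralog of Paip2, at 11.8, 12.3 and 12.9. Pabpn1, at 11.9, 14.4 and 17.5, overlapped both Paip1 and Paip2b. Pabpc4, an inducible PABP first described in activated T cells and platelets, and Pabpc1l, the embryonic PABP of oocytes and early embryos, were the lowest and overlapped each other. They stood at 1.88, 2.47 and 3.26 and at 1.79, 2.58 and 2.78.

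**Figure D2:**
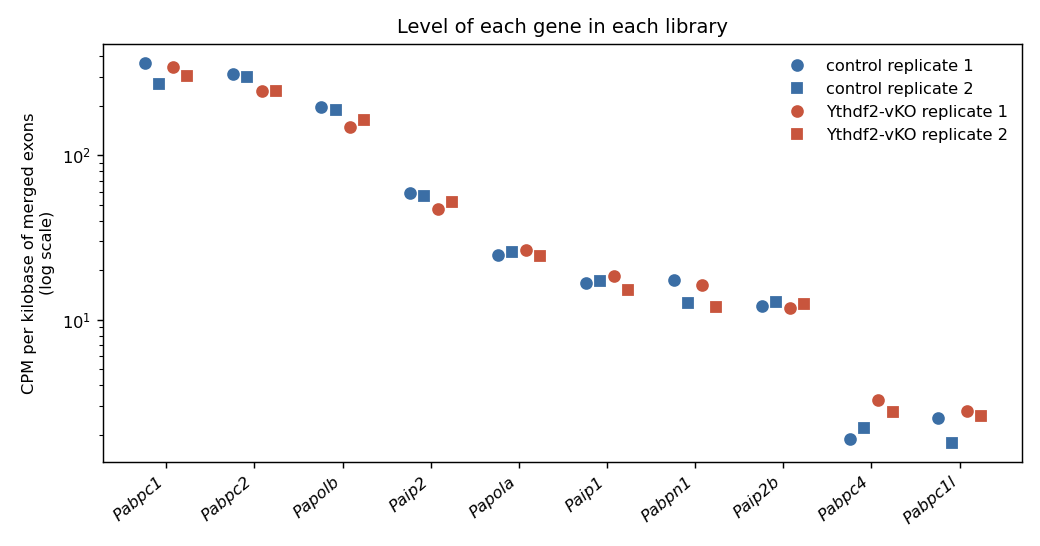
Each point is 1 library, with the level in CPM per kilobase of merged exons on a log y axis and the 10 genes on the x axis in order of their mean. Pabpc1, Pabpc2 and Papolb lie above 148, the other 7 genes below 60, with Pabpc4 and Pabpc1l under 3.5 in every library.

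This order rests in part on the gene models. Merged exons of Pabpc1 add up to 6540 bases, against 2916 for its longest annotated transcript, and per kilobase of longest transcript its level was 610.4, 727.3 and 817.9, with no overlap with Pabpc2 (2586 bases by either length). Paip1 and Pabpn1 exchanged places with that length, and their libraries overlapped under both. The other members kept their places.

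The comparison of genotypes asks how the germ cell mutation of Ythdf2 alters the testis transcriptome. For the 10 genes, none passed an adjusted p of 0.05 by edgeR's quasi-likelihood test, where 83 of all genes tested did (0.393%), 59 higher (0.279%) and 24 lower (0.114%). That split was 181 and 37 when scaled by library totals only, and 83 and 61 after an offset for GC content. At an unadjusted p under 0.05 there were 3 of the 10, Pabpc4 higher and Pabpc2 and Papolb lower, against 14.1% of all genes (7.65% higher and 6.47% lower). A DESeq2 Wald test gave the same 2 counts of 0 and 3. In the authors' deposited table no member had an adjusted p under 0.05. Its member values equal those of that DESeq2 Wald test, so the 2 are not separate evidence. The libraries of the groups did not overlap in CPM for 5 of the 10, 2 higher and 3 lower in vKO, against 45.3% of all genes (22.7% higher and 22.6% lower). The median log2 fold change of the 10 was -0.04, with 4 above and 6 below 0, and that of all genes tested 0.00265. The sign of the members' median turned under scaling by library totals only (0.0281, where the median of all genes was 0.0674) and under the GC offset (0.0264). The count of 3 became 5 without either control replicate, 0 without replicate 1 of the libraries labelled vKO and 1 without replicate 2.

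**Figure D3:**
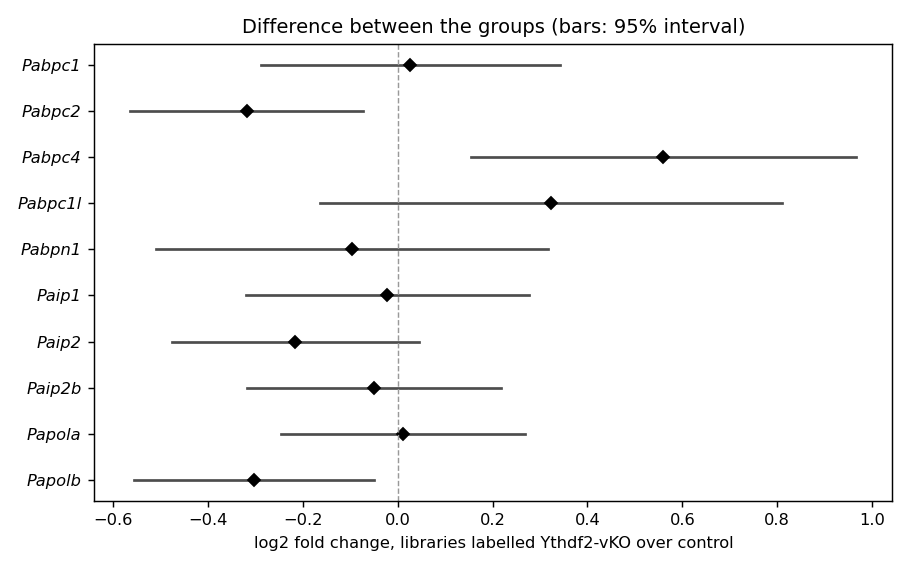
Diamonds show the fitted log2 fold change of the libraries labelled Ythdf2-vKO over control (x axis) for each gene (y axis), and bars its 95% interval from the quasi-likelihood fit, with no adjustment over genes. The bars of Pabpc2, Papolb and Pabpc4 leave out 0, and no gene passes after adjustment.

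Of the cytoplasmic poly(A)-binding proteins, Pabpc2 had 813.6 and 779.3 CPM (control) against 638.9 and 639.1 CPM (labelled vKO), from 19018, 23363, 17104 and 17241 counts. Both vKO libraries lay below both control libraries, and the vKO libraries were closer to each other than the controls. The log2 fold change was -0.32 (SE 0.11, unadjusted p 0.0152, adjusted p 0.234), or 0.802-fold with a 95% interval from 0.677 to 0.951. Leaving out each library in turn, with 1 library left in that group, gave log2 fold changes from -0.35 to -0.29. Since the groups did not overlap, leaving out 1 library could hardly turn the sign, so this range does not test it.

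Pabpc1 had 2385 and 1780 CPM (control) against 2267 and 1974 CPM (labelled vKO). Its vKO values lay between those of the control libraries, which were the farthest apart. The log2 fold change was 0.03 (SE 0.15, adjusted p 0.964), with an interval from 0.818-fold to 1.27-fold. Its sign followed the libraries used, being -0.17 without control replicate 2 and 0.25 without control replicate 1.

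Pabpc4 had 7.57 and 8.81 CPM (control) against 13.1 and 11.1 CPM (labelled vKO), from 177, 264, 351 and 299 counts. The groups did not overlap, and the estimate was the largest in size of the 10, at a log2 fold change of 0.56 (SE 0.19, unadjusted p 0.0107, adjusted p 0.211) and a 95% interval from 1.11-fold to 1.95-fold. This is the member that shares most sequence with pseudogenes. The 3 of them with counts here summed to 31 and 27 counts (control) against 40 and 55 (labelled vKO).

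Pabpc1l had 6.93 and 4.87 CPM (control) against 7.58 and 7.12 CPM (labelled vKO). The vKO libraries were both higher, by little over control replicate 1. The log2 fold change of 0.32 (SE 0.23, adjusted p 0.572) became 0.09 without control replicate 2 and 0.59 without control replicate 1. Pabpc6, examined as a close copy, had 472.7 and 316.5 CPM (control) against 369.8 and 304.9 CPM (labelled vKO). These groups overlapped (log2 fold change -0.23, SE 0.18, adjusted p 0.639 by edgeR). Without control replicate 2 the estimate was -0.49, resting on 1 control library, the higher of the 2.

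Pabpn1, the nuclear tail-binding protein that stimulates the polymerase, had 53.2 and 38.3 CPM (control) against 49.2 and 36.2 CPM (labelled vKO). Each group held one high and one low library, and the groups overlapped (log2 fold change -0.10, SE 0.19, adjusted p 0.875). The annotated gene Gm20521 covers 651 bases (21.4%) of its merged exons on the same strand and is absent from the deposited counts. Whether the authors' annotation held Gm20521 is not given, so reads there may not have been assigned to Pabpn1.

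Of the polymerases, Papolb had 832.3 and 796.3 CPM (control) against 628.0 and 692.6 CPM (labelled vKO), from 19454, 23874, 16812 and 18685 counts. Both vKO libraries lay below both control libraries. The log2 fold change was -0.30 (SE 0.12, unadjusted p 0.0227, adjusted p 0.264), or 0.811-fold with a 95% interval from 0.681 to 0.966. With an offset for GC content it was -0.22 at an unadjusted p of 0.0862 by the same edgeR test. Leaving out each library in turn, with 1 library left in that group, gave -0.37 to -0.23. As for Pabpc2, the groups did not overlap, so this range does not test the sign.

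Papola had 163.2 and 170.2 CPM (control) against 174.1 and 161.9 CPM (labelled vKO). The control values lay within the range of the vKO values, and the log2 fold change was 0.01 (SE 0.12, adjusted p 0.982). Its 95% interval, from 0.843-fold to 1.2-fold, gives the sizes of difference that remain possible at this precision.

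Of the PABP-interacting proteins, Paip2 had 209.3 and 199.97 CPM (control) against 167.2 and 185.3 CPM (labelled vKO). The groups did not overlap, and the log2 fold change was -0.22 (SE 0.12, unadjusted p 0.0965, adjusted p 0.456). Paip1 had 57.8 and 59.9 CPM (control) against 63.6 and 52.3 CPM (labelled vKO), and Paip2b had 77.3 and 81.5 against 74.5 and 79.0. For both, the groups overlapped and the log2 fold changes were -0.02 (SE 0.14, adjusted p 0.968) and -0.05 (SE 0.12, adjusted p 0.908). The sign of both turned positive under the GC offset and under scaling by totals only.

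Ratios of counts within a library need no scaling between libraries. Pabpc2 over Pabpc1 was 0.341 and 0.438 (control) against 0.282 and 0.324 (labelled vKO). Papolb over Papola was 5.10 and 4.68 (control) against 3.61 and 4.28 (labelled vKO). In both pairs the germ cell gene made up a smaller part in each vKO library than in either control, by factors of 0.781 and 0.804 between the geometric means. The exact two-sided permutation p was 0.3333 for each, the smallest that 2 libraries against 2 can give. Scaled per kilobase of merged exons, the control means were 0.985 and 7.61. These ratios were looked at because the member pairs are paralogs, and they share the Pabpc2 and Papolb counts given above. Other ratios of related genes also separated the groups. Pabpc6 over Pabpc1 was lower, at 0.198 and 0.178 (control) against 0.163 and 0.154 (labelled vKO). Paip2b over Paip2 was higher, at 0.369 and 0.408 against 0.445 and 0.426, and Paip2 over Paip1 overlapped. How often such ratios separate the groups over all genes was not tested.

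The single-exon genes Papolb and Pabpc2 had similar raw counts in every library, though not similar levels per kilobase, where Papolb was the lower. Their ratio of raw counts was 1.02 in each control library against 0.983 and 1.08 under the vKO label, and the groups overlapped.

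**Figure D4:**
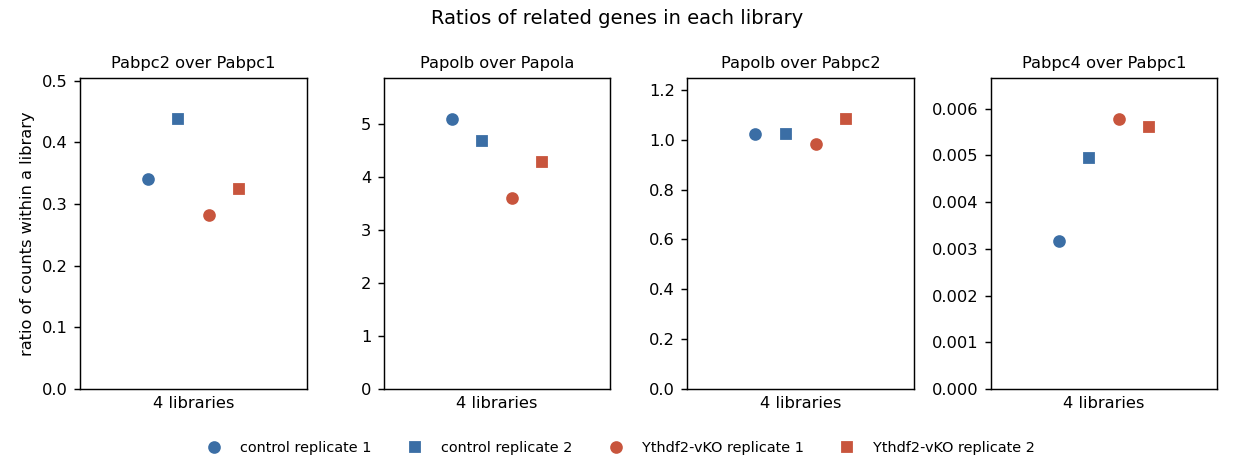
Each panel shows 1 ratio of raw counts (y axis, from 0) in the 4 libraries (points; circles are replicate 1 and squares replicate 2). Pabpc2 over Pabpc1 and Papolb over Papola are lower in both libraries labelled vKO than in both controls, Papolb over Pabpc2 overlaps near 1.02, and Pabpc4 over Pabpc1 is higher in both.

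In bulk testis, fewer cells of a type and less RNA per cell cannot be told apart. Levels of cell type markers also differed between the libraries. For elongating spermatids, 8 of 9 markers had a negative log2 fold change (median -0.25). By edgeR, 4 of the 9 were lower at an unadjusted p under 0.05, against 6.47% of all genes tested. The summed level of the 9 markers was 12366 and 10160 CPM (control) against 9632 and 9905 CPM (labelled vKO). For spermatocytes 7 of 8 were negative (median -0.16; 2159 and 2186 against 1987 and 1933 CPM), and for round spermatids 3 of 7 (median 0.06; 1222 and 1192 against 1231 and 1276 CPM). In these 2 lists 1 and 0 markers were lower at an unadjusted p under 0.05 by edgeR. Relative to the summed elongating spermatid markers, Papolb was 6.73% and 7.84% (control) against 6.52% and 6.99% (labelled vKO), and Pabpc2 was 6.58% and 7.67% against 6.63% and 6.45%. Both overlapped between the groups. Relative to the summed round spermatid markers the groups did not overlap, with Papolb at 68.1% and 66.8% against 51.0% and 54.3% and Pabpc2 at 66.6% and 65.4% against 51.9% and 50.1%. Nor did they overlap relative to the summed spermatocyte markers, with Papolb at 38.5% and 36.4% against 31.6% and 35.8% and Pabpc2 at 37.7% and 35.7% against 32.2% and 33.1%.

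On the somatic side, all 9 Sertoli cell markers had a positive log2 fold change (median 0.48), and 1 of them, Wt1, passed at an adjusted p of 0.0418. By edgeR, 7 of the 9 were higher at an unadjusted p under 0.05, against 7.65% of all genes tested. The summed level of the 9 markers was 1195 and 1276 CPM (control) against 1791 and 1567 CPM (labelled vKO). Relative to that sum, Pabpc4 was 0.633% and 0.690% (control) against 0.732% and 0.707% (labelled vKO), a narrower gap than in CPM and one that did not overlap. Clu alone held 658.3 and 715.0 CPM (control) and 934.1 and 801.2 CPM (labelled vKO) of that sum. Pabpc4 was also higher without overlap relative to the spermatocyte (0.351% and 0.403% against 0.660% and 0.573%), round spermatid and elongating spermatid sums. Ratios to the remaining lists were not taken. Other lists also had mostly positive values: 7 of 7 spermatogonial markers (median 0.41), 6 of 7 Leydig cell markers (0.36), 4 of 5 endothelial markers (0.43) and 4 of 4 tested erythrocyte genes (0.76). In the same order, 2, 3, 1 and 3 of them were higher at an unadjusted p under 0.05 by edgeR. The medians of peritubular myoid cell and macrophage markers were -0.05 and 0.04. The part of cell composition in the values of Papolb, Pabpc2 and Pabpc4 was not tested.

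The wider poly(A) pathway was read from 5 lists of other genes, 66 in all, of which 62 were in the table and all 62 were tested. None passed an adjusted p of 0.05 by edgeR, and 4 had an unadjusted p under 0.05, 1 higher and 3 lower in vKO, against 14.1% of all genes tested. Leaving out 1 library left a group with 1 library, and the calls among these genes changed, as did those over all genes tested.

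Among 18 genes of nuclear cleavage and polyadenylation the median log2 fold change was -0.06, with 6 above 0. Cpsf7, a subunit of cleavage factor I that guides the choice of poly(A) site, had 54.6 and 50.2 CPM (control) against 75.8 and 63.9 CPM (labelled vKO). The vKO libraries were both higher (log2 fold change 0.41, SE 0.14, unadjusted p 0.00951, adjusted p 0.202 by edgeR). The 11 non-canonical nucleotidyltransferases, which extend tails outside the cleavage reaction, had a median of -0.03 with 5 above 0 and 0 at an unadjusted p under 0.05.

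Of the other tail-binding proteins 6 of 10 were tested, with a median of -0.18 and 2 above 0. Larp4b, a La-related protein that binds mRNA and PABP, had 57.2 and 65.2 CPM (control) against 47.7 and 50.1 CPM (labelled vKO). Its log2 fold change was -0.32 (SE 0.13, unadjusted p 0.0298, adjusted p 0.295 by edgeR). Both of its vKO libraries were below both controls.

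At the cap, 12 genes of eIF4F and its regulators had a median of 0.03 with 8 above 0. Eif4e, which binds the cap itself, had 306.8 and 298.1 CPM (control) against 237.8 and 242.2 CPM (labelled vKO). The groups were apart by more than either's own spread (log2 fold change -0.33, SE 0.12, unadjusted p 0.0128, adjusted p 0.225 by edgeR). The 15 genes of PABP's C-terminal (MLLE) domain partners, PABP-directed deadenylation and translation termination had a median of 0.09 with 9 above 0.

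**Figure D5:**
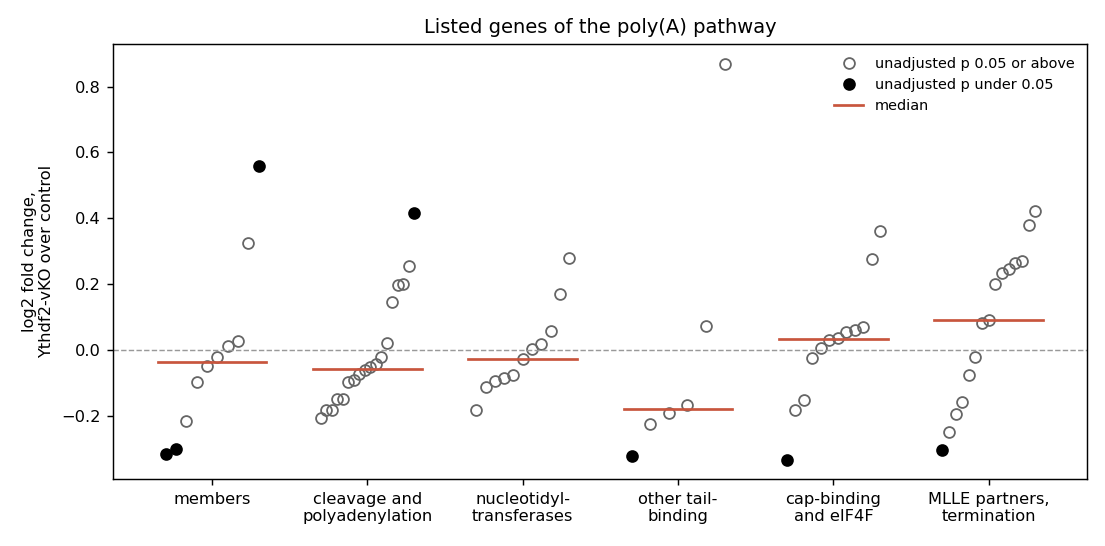
Each circle is 1 gene, with its log2 fold change (libraries labelled Ythdf2-vKO over control) on the y axis and its list on the x axis; filled circles have an unadjusted p under 0.05 and red lines are list medians. The medians run from -0.18 to 0.09, and the filled circles are 3 of the 10 members and 4 of the 62 other genes.

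Since YTHDF2 reads methylated adenosines, the transcripts were searched on their own strand for GGACT, the most common form of the methylation consensus. At least one match was found in 8 of the 10 members, against 84.7% of 21116 tested genes with a transcript. Pabpn1 held 7 matches, or 3.94 per kilobase, above the 95th percentile of all those genes (2.69 per kilobase, with a median of 1.03). Paip2b also held 7 (1.76 per kilobase), Papolb 3 (0.708 per kilobase) and Papola 2 (0.457 per kilobase). Pabpc1, Pabpc2, Pabpc4 and Paip1 held 1 each, while Paip2 and Pabpc1l held 0. The median of the 10 members was 0.422 per kilobase, below the 1.03 of all those genes. A match describes letters in the annotated transcript and is not a measured methylation site, and a count of 0 says only that these letters were not found there.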

How the data were processed

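Testis RNA of 4 libraries, 2 per genotype, was analysed from 1 deposited table. Per the labels' protocols the libraries were rRNA-depleted and directional; per the submitters' processing notes HISAT2 2.1.0 and HTSeq 0.6.1p1 were used, with no role or settings. Genome build, read length and the strand setting are not given in the sources used here. The authors deposited raw counts per gene and, per the file headers, their mean normalized count (a signal), a fold change on the log2 scale and the error of that estimate, the Wald statistic (a score), and a p-value with its adjusted p-value. Per-library counts were read through the labels' titles.

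Counts were tested with edgeR 4.0.16 (limma 3.58.1, R 4.3.3): TMM scaling, filterByExpr, genotype as the only term of a robust quasi-likelihood fit, a two-sided F test and Benjamini-Hochberg adjustment over 21132 genes, called at an adjusted p under 0.05. Intervals cover 95%. Totals of 24862518 to 29561182 counts set the depth, and the common biological coefficient of variation was 13.5%. Counting error adds most for low genes such as Pabpc1l (146 to 203 counts) and Pabpc4 (177 to 351 counts). Replicates differed by more than sampling noise (chi-square per degree of freedom 19.4 in control and 7.84 in vKO) and were kept apart. Counts were also simulated for this comparison and run on 21132 genes. Of genes with an absolute log2 fold change of 1, 92 of 100 were recovered, and of those with 2, 100 of 100. The changed genes were drawn only from those above a floor on mean CPM, so recovery of lower genes was not tested. A further 20 calls were false, a larger share of the calls than the 0.05 at which genes were called.

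Coordinates, exon lengths and transcripts come from GENCODE M21 (GRCm38), in which 25241 identifiers were found; sequence features use the transcript with the longest coding sequence. Copies were sought with BLAST 2.17.0 and coding sequences aligned with Biopython 1.88. The naming rule took the 10 members, Ythdf2, close copies or overlapping genes of members, and per pathway list any called gene or the 2 smallest unadjusted p under 0.05; Wt1 was named after its value was seen. With 4 libraries, no genes were ranked by likeness of pattern. The members and lists were chosen with earlier results of these data known.

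Both groups use replicate numbers 1 and 2, whose meaning the labels leave out. The alternatives tried are DESeq2 1.42.0 size factors and its Wald test, library totals, no filter, a fit without robust estimation, a replicate block, a GC offset, transcript lengths, and leaving out each library. The table holds 0 per-sample columns that were left unused. One gene that the naming rule selects is not reported here.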

Additional observations from a re-analysis of the deposited data

How the results depend on the processing

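No member passed an adjusted p of 0.05 under any of the 8 alternative scalings, filters, fits and tests. Their adjusted p ran from 0.131 to 0.317 for Pabpc2, 0.0817 to 0.278 for Pabpc4 and 0.158 to 0.456 for Papolb, and their log2 fold changes from -0.32 to -0.25, 0.48 to 0.62 and -0.30 to -0.22. The sign turned for Paip1 (0.0420, 0.0450 and 0.0377) and Paip2b (0.0142, 0.00787 and 0.00763) with library totals, the GC offset and that offset plus replicate block, and in the same order for the median of the members (0.0281, 0.0264 and 0.0227) and of the nucleotidyltransferases (0.0397, 0.0126 and 0.0138). The cleavage list's median was 0.00860 with library totals, and that of the cap list -0.000287 with the GC offset.

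Over all genes, library totals alone called 218 (181 higher, 37 lower), the GC offset 144 with 61 lower, a DESeq2 Wald test 217 (137 and 80), and a fit without robust estimation 15 lower. Library totals gave 8 pathway genes at an unadjusted p under 0.05.

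Deviations of same-numbered libraries correlated at 0.124 across 17827 genes in 2 pairs, too few to read a pairing from. A replicate block called 1017 genes (627 higher, 390 lower), put 11 pathway genes at an unadjusted p under 0.05, and called 2 of them, Cpsf7 (adjusted p 0.0290) and Atxn2 (0.0326). Joined with the GC offset, the block gave 711 (334 and 377), 15 and 1, Cpsf7 (0.0187). No member was called in either.

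Leaving out each library in turn leaves a group with 1 library, assumed to vary like the others. Reading calls from these fits was chosen after seeing the data. Leaving out control replicate 1 or control replicate 2 raised the calls over all genes well above the 83 of the main fit. Whether members were called there more often than other genes was not tested. All genes called ran from 18 to 1540 (higher 16 to 1075, lower 2 to 536), members called from 0 to 2 (Pabpc2 at -0.35 and Papolb at -0.33, without control replicate 2), members at an unadjusted p under 0.05 from 0 to 5, and pathway genes called from 0 to 8 and at an unadjusted p under 0.05 from 1 to 19. Log2 fold changes ran from -0.17 to 0.25 for Pabpc1, -0.34 to 0.15 for Pabpn1, -0.17 to 0.11 for Paip1 and -0.0421 to 0.0625 for Papola. Medians ran from -0.110 to 0.0851 for the members, -0.103 to 0.0449 for nucleotidyltransferases, -0.13 to 0.18 for the cap list and -0.0300 to 0.198 for the MLLE list.

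Per kilobase of longest transcript, mean levels over the 4 libraries were 720.7 for Pabpc1 (321.4 with merged exons), 3.20 for Pabpc4, 24.9 for Pabpn1, 22.9 for Paip1, 121.4 for Paip2, 19.6 for Paip2b and 38.2 for Papola. The control mean ratio per kilobase was 0.439 for Pabpc2 over Pabpc1 (0.985 with merged exons) and 5.05 for Papolb over Papola (7.61). The cause of the changed calls was not tested. Absolute log2 fold changes under 1, which include those of all 10 members, were not covered by the simulated data.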

Other observations

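Papolb lies within the bounds of Radil (chromosome 5, 142484839 to 142551098, minus strand) and on its strand, and shares no exon base with it. Radil, which encodes a Rap GTPase interactor, had 59.1 and 40.9 CPM (control) against 75.7 and 62.0 CPM (labelled vKO). Its log2 fold change was 0.46 (SE 0.18, unadjusted p 0.0231, adjusted p 0.267 by edgeR's quasi-likelihood test), the sign opposite to that of Papolb. Counts of Papolb over Radil were 14.1 and 19.5 (control) against 8.30 and 11.2 (labelled vKO), groups that did not overlap. The exact two-sided permutation p was 0.3333, the smallest that 2 libraries against 2 can give. This ratio restates the opposite signs of the 2 genes, neither of which was called.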
